A study of Rattus norvegicus with 6 samples.

Results

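Ldha, Pgk1, Gapdh and Sdha code for enzymes of energy metabolism and were read on the arrays by 13 probes, out of 89 transcript probes and 39886 probes of all kinds. The probes were chosen by the RefSeq transcript each one carries: 4 belong to Ldha and 3 each to Pgk1, Gapdh and Sdha. A choice by the manufacturer's probe names alone, which start with A_, would have kept 1 of them, the Ldha probe A_44_P210461. The other 12 are custom probes of the same transcripts, are also printed as 10 spots each, and are called here by the start of their names, such as CUST_4. The sources used here give neither the binding position of a probe on its transcript nor its sequence, so none is printed.

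The samples were total RNA of rat pancreatic islets, small endocrine organs in which beta cells secrete insulin. The P10 group holds 3 samples of pups at 10 days of age, each pooled from the islets of 2 pups, and the Adult group holds 3 samples of single animals at 3 months of age. No treatment or genetic change is named for either group. The comparison asks how the RNA of islets differs between the suckling period, when beta cells are still maturing, and adulthood. Each sample was labelled at the RNA 3′ ends with the dye Cy3 by ligation and hybridised to 1 piRNA array, so a probe reads any labelled RNA or fragment that binds to it.

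As background, glycolysis turns glucose into pyruvate in the cytosol. Gapdh catalyses its oxidation step and Pgk1 the step after it, which forms ATP. Ldha is a subunit of lactate dehydrogenase, which turns pyruvate into lactate, and Sdha is the flavoprotein subunit of succinate dehydrogenase, which works in both the citric acid cycle and the respiratory chain. Beta cells link insulin release to the oxidation of pyruvate in mitochondria, and mature beta cells are known for low Ldha. Gapdh, Pgk1 and Sdha are also widely used as reference genes.

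No spot was saturated, and the median local background lay between 19.0 and 21.0 on all arrays. Between 27.6% and 36.7% of piRNA probes and between 59 and 73 of the transcript probes were well above background on each array. P10 1 correlated more closely with Adult 1 (r = 0.941 across 11846 probes, which are not independent replicates) than with P10 2 (0.889) or P10 3 (0.907). By the scan identifiers in the file headers, Adult 1 shared slide 1 with the 3 P10 arrays, whereas Adult 2 and Adult 3 were alone on slide 2, so slide and age overlap in part. Markers of beta, alpha, delta, PP, acinar, ductal, endothelial, stromal, immune and blood cells had 0 probes, so the labelled tissue could not be checked, and fewer cells of a type cannot be told apart from less RNA per cell.

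A probe counted as detected on an array where over 50% of its unmarked spots were well above background by the scanner software. Of the 13 probes, 8 were detected on every array and 10 were tested, which required detection on the complete set of 3 arrays of either age. Ldha A_44_P210461 and CUST_16 met this through P10 alone, the age at which they were brighter, so their direction in adult islets was favoured by the filter. In adult islets 1 of the 10 was higher and 0 were lower (limma over all 11981 tested probes of the array, Benjamini-Hochberg adjusted p under 0.05). The one that rose was Pgk1 CUST_4, and another Pgk1 probe did not pass the test. By the same fit 4.27% of all tested probes were called higher and 1.78% lower, and among the 81 tested probes with 10 spots 7.41% were called, all of them higher. Before adjustment 3 of the 10 had p under 0.05 (Pgk1 CUST_4, Ldha CUST_18 and Gapdh CUST_34), against 28.1% of all tested probes. The differences, adult minus P10, were positive for 5 probes and negative for 5, and their median was -0.07 (log2), where all tested probes had a median of -0.04; both figures include those Ldha probes and support no direction of the members.

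**Figure D1:**
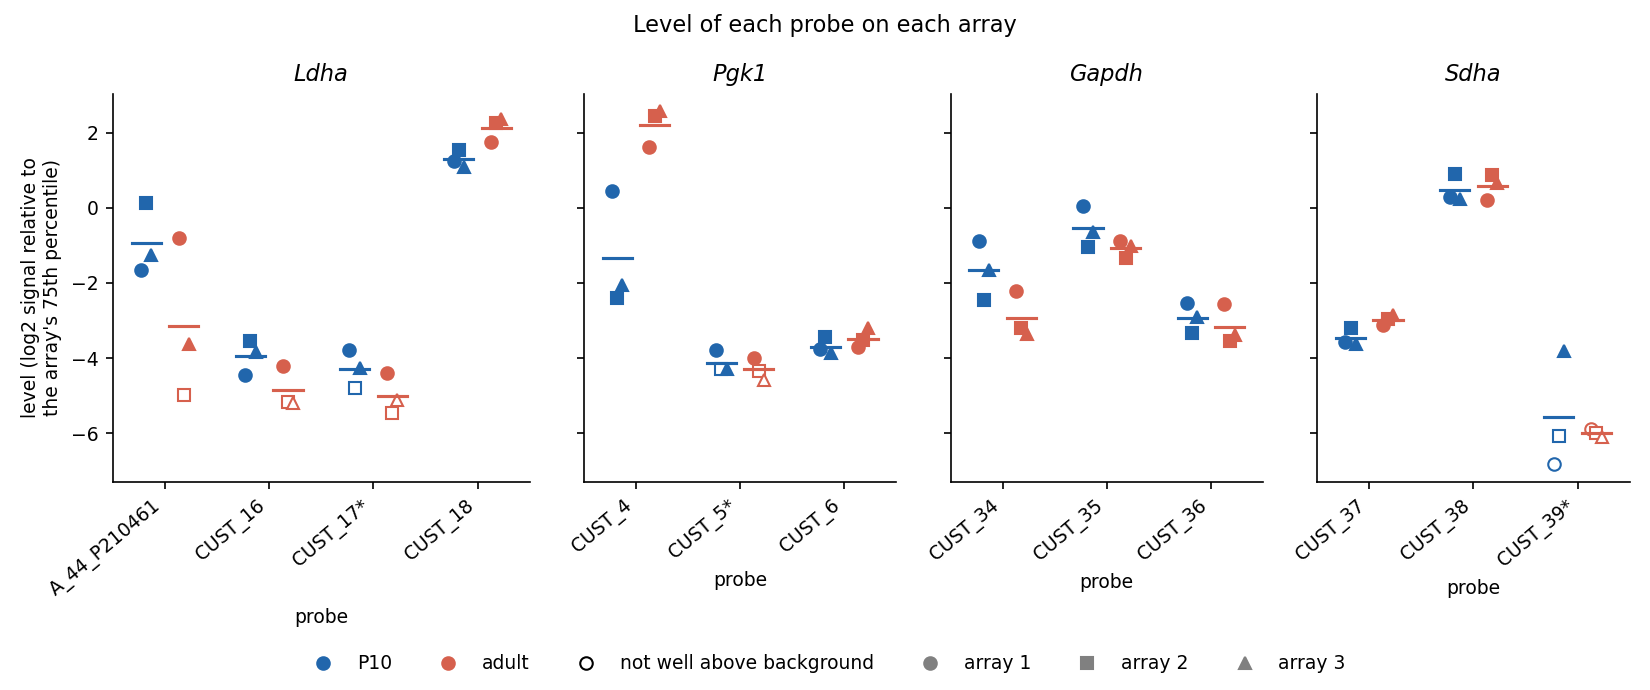
Level of each of the 13 probes on each array (vertical axis, log2 of the processed signal relative to the array's 75th percentile), with probes along the horizontal axis by gene. Blue points are P10 arrays, red points adult arrays, marker shapes give the array number, open points are values not well above background, bars are group means of 3 arrays, and an asterisk marks the 3 probes that were not tested. All 3 adult values of Pgk1 CUST_4, Ldha CUST_18 and Sdha CUST_37 lie above all P10 values, and positions are to be compared within a probe only.

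The ages did not overlap for 3 of the 10 tested probes (Pgk1 CUST_4, Ldha CUST_18 and Sdha CUST_37), each time with the adult arrays on top. Over all tested probes with values on every array, 17.0% had the adult arrays on top and 14.7% the P10 arrays. The middle 80% of all tested probes lay between -1.43 and 1.18 on the log2 scale. Pgk1 CUST_4 and Ldha A_44_P210461 lay outside that range, 8 members inside it.

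**Figure D2:**
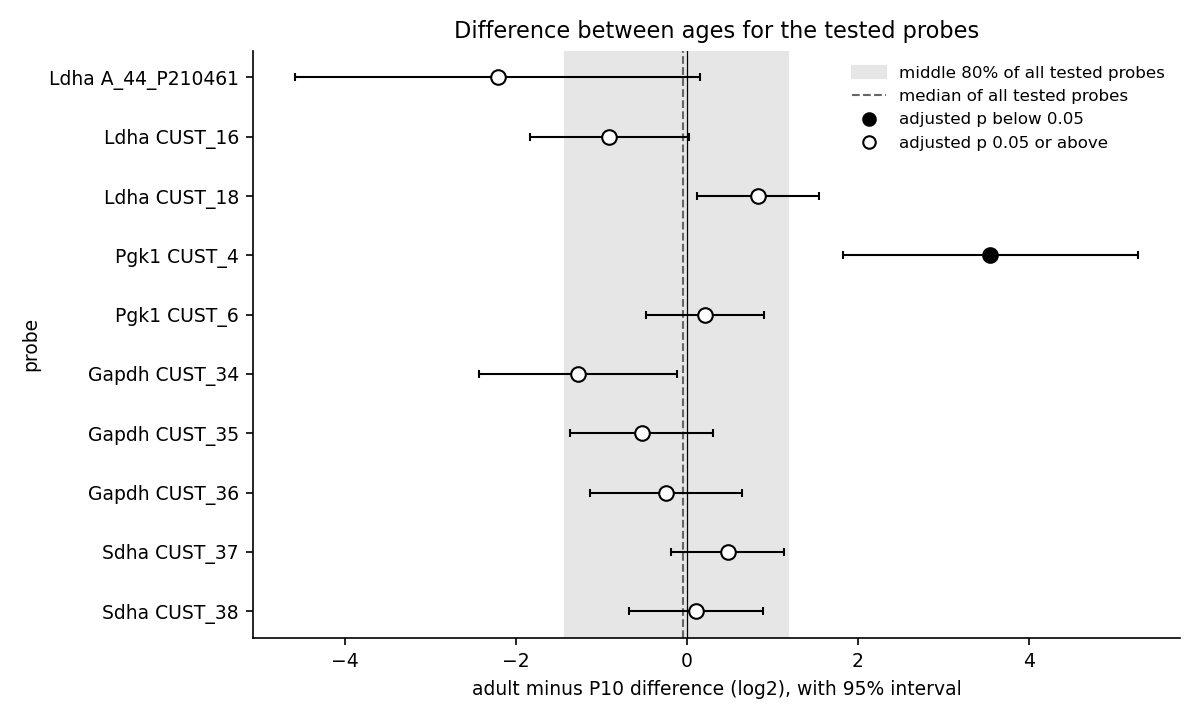
Adult minus P10 difference of the 10 tested probes (horizontal axis, log2) with 95% intervals from limma, against the middle 80% (grey) and the median (dashed) of all 11981 tested probes. The filled point, Pgk1 CUST_4, passed the adjusted threshold with an interval from 1.82 to 5.27, and the open points did not.

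Among the glycolytic enzymes, 1 probe of Pgk1 rose in adult islets and another, dim on every array, gave nearly the same level at both ages. The processed signal of CUST_4, an intensity with the background subtracted, was 239.7, 18.1 and 33.5 on the arrays P10 1, P10 2 and P10 3, against 426, 589.7 and 598 on the adult ones. All adult arrays were above all P10 arrays, and P10 1 stood far above the other P10 arrays. Relative to the 75th percentile of each array, which is the level used below, CUST_4 was at -1.34 ± 1.56 in P10 and 2.21 ± 0.52 in adult islets on the log2 scale (SD, n = 3 each). The difference of 3.55 ± 0.74 (SE) corresponds to 11.7-fold, with a 95% interval from 3.53-fold to 38.6-fold (limma adjusted p = 0.045). When the probes with 10 spots were fitted and adjusted among themselves, the adjusted p was 0.018 (limma).

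The difference of Pgk1 CUST_4 was positive in all 24 alternative settings, between 1.95 and 4.74 on the log2 scale. It passed the threshold in 13 of them. The sign was fixed in advance in part of these settings. Those that changed only the filter, the set of adjusted probes or the replicate block left the estimate at 3.55. Since the ages did not overlap, leaving arrays out could not turn the sign. The call ended without P10 2, P10 3, Adult 2 or Adult 3, at differences of 3.01, 3.18, 3.43 and 3.37 (limma adjusted p = 0.11, 0.167, 0.151 and 0.17). In each of those fits 0 probes of the whole array were called in either direction. The call of CUST_4 held without P10 1, at 4.44, and without Adult 1, at 3.84 (limma adjusted p = 0.0021 and 0.029). Over the whole array those fits called 1038 of 11970 and 893 of 11980 tested probes higher. Without Adult 1 all adult arrays were on slide 2 and all P10 arrays on slide 1. Age and slide cannot be told apart in that fit. Within slide 1, where Adult 1 is the only adult array, and with the slide as a block the difference was 2.95. With the block the adjusted p was 0.421 (limma), and 1 of 11981 tested probes of the whole array was called. Slide 2 holds no P10 array, so both settings give the same estimate for every probe, which rests on Adult 1 alone for the adult side. With normexp background correction it was 1.95 (limma adjusted p = 0.077), where the median of all tested probes was 0.31.

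The 10 spots of CUST_4 lay close together on 5 arrays, with an SD between 0.06 and 0.13 on the log2 scale once 8 spots with an outlier mark were left out. On Adult 3 they ran from a processed signal of 149.6 to 909.8 with none marked, an SD of 0.90. Every spot on that array lay above every unmarked spot of P10 2 and P10 3, while its dimmest lay below all the unmarked spots of P10 1. With the marked spots kept in, the difference was 3.61, and with the median over spots it was 3.72 (limma adjusted p = 0.045 for both).

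Pgk1 CUST_6 was dim and steady, with processed signals of 13.0, 8.76 and 9.55 on the P10 arrays and 10.6, 9.44 and 10.9 on the adult arrays. The lowest signal among detected probes was between 5.46 and 6.03 per array, so background may hide a change of CUST_6. The ages overlapped, with Adult 3 the highest in level and P10 3 the lowest. Its level was -3.69 ± 0.22 in P10 and -3.48 ± 0.26 in adult islets (SD, n = 3 each). The difference of 0.21 ± 0.29 (SE) had a 95% interval from -0.48 to 0.90 (limma adjusted p = 0.673). It was -0.025 within slide 1 and 0.0015 with no scaling between arrays. With 1 array left out it ran from 0.072 without Adult 3 and 0.12 without P10 3 to 0.33 without P10 2 or Adult 1. A spot at 455 on P10 3 carried an outlier mark and was left out, and with all marked spots kept in the difference was 0.01.

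The third Pgk1 probe, CUST_5, was near background and was not tested. It was well above background on P10 1, P10 3 and Adult 1, with processed signals of 12.7, 4.86 and 7.21 on the P10 arrays and 8.80, 5.36 and 4.23 on the adult arrays. The ages overlapped, at -4.12 ± 0.29 in P10 and -4.30 ± 0.29 in adult islets (SD, n = 3 each). A spot of this probe at 27399 on Adult 1, marked as an outlier, was left out.

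The Pgk1 probes were also compared within arrays, where scaling between arrays plays no part. CUST_4 exceeded CUST_6 by 4.20, 1.05 and 1.81 on the log2 scale in P10 1, P10 2 and P10 3, and by 5.33, 5.97 and 5.78 on the adult arrays. Only the difference of this ratio between ages can be read, since brightness of different probes is not a measure of amount. CUST_6 was near the lowest detected signals, so the ratio largely follows CUST_4. The ratio differed by 3.34 (adult minus P10; exact permutation test over samples, two-sided, p = 0.1, the smallest p that 3 against 3 arrays allow, and 0.25 after Benjamini-Hochberg adjustment over 5 pairs of probes).

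**Figure D3:**
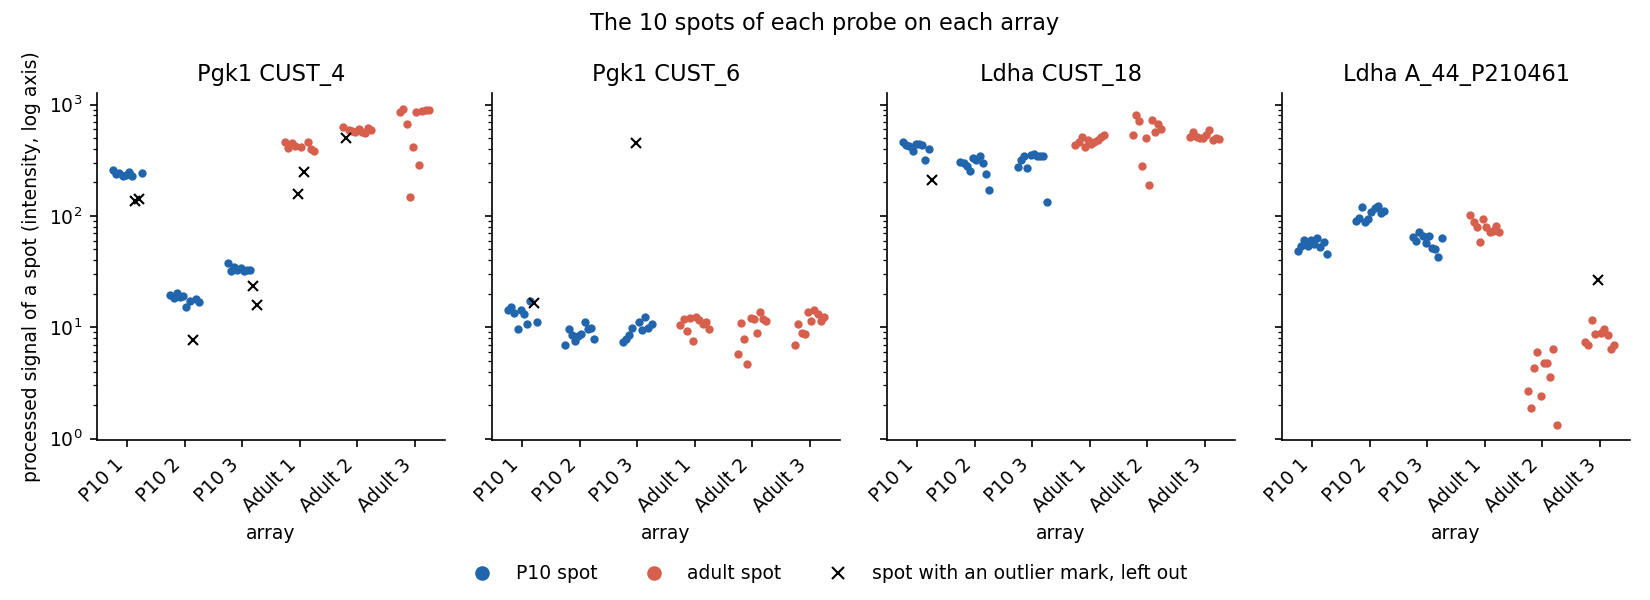
Processed signal (vertical axis, log scale) of the 10 spots of 2 Pgk1 probes and 2 Ldha probes on each array (horizontal axis); crosses are spots with an outlier mark, which were left out. CUST_4 of Pgk1 is high on all adult arrays and intermediate on P10 1, CUST_6 stays near 10 on every array, and the Ldha probe A_44_P210461 is bright on the 4 arrays of slide 1 and dim on Adult 2 and Adult 3.

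Gapdh, which acts at the step before Pgk1, was read by 3 probes, each detected on every array. Each had a lower mean level in adult islets, and none passed the test. CUST_34 had processed signals of 95.7, 17.6 and 44.8 on the P10 arrays and 29.9, 11.8 and 9.84 on the adult arrays. In level the ages overlapped, because Adult 1 lay above P10 2, while P10 1 was the highest of the 6. Its level was -1.65 ± 0.79 in P10 and -2.92 ± 0.62 in adult islets (SD, n = 3 each), a difference of -1.27 ± 0.49 (SE; limma adjusted p = 0.148). Within slide 1 the difference was -0.57, and with normexp -0.13, where the median of all tested probes was 0.31.

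Gapdh CUST_35 had processed signals of 180.3, 46.8 and 89.3 on the P10 arrays and 75.7, 43.2 and 49.6 on the adult arrays. The ages overlapped here as well, with P10 1 the highest and Adult 2 the lowest in level. The difference was -0.53 ± 0.36 (SE), with a 95% interval from -1.37 to 0.31 (limma adjusted p = 0.365), and it was -0.24 without P10 1. CUST_36 had processed signals of 30.5, 9.46 and 18.7 on the P10 arrays and 23.6, 9.31 and 9.58 on the adult arrays. P10 1 and Adult 1 were its highest arrays, at levels of -2.52 and -2.56. Its difference was -0.24 ± 0.38 (SE; limma adjusted p = 0.706), and it turned to 0.36 within slide 1. With normexp it was 0.29, where the median of all tested probes was 0.31. With 1 array left out it ran from -0.042 without P10 1 to -0.55 without Adult 1, and it was -0.056 without Adult 2 and -0.13 without Adult 3.

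For all 3 Gapdh probes P10 1 was the brightest array and Adult 1 the brightest adult array. Among the 3 pairs of Gapdh probes, the within-array ratio of CUST_34 to CUST_36 differed by -1.03 (adult minus P10), with no overlap between ages (exact permutation test, two-sided, p = 0.1, the smallest the design allows, and 0.25 adjusted over 5 pairs). The ratio of CUST_34 to CUST_35 differed by -0.74 and that of CUST_35 to CUST_36 by -0.29 (exact permutation test, p = 0.2 and 0.4).

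Ldha, which takes pyruvate to lactate, was read by 4 probes that differed in sign. CUST_18, which alone among them was detected on all 6 arrays, had processed signals of 413, 279 and 299 on the P10 arrays and 472, 515 and 519 on the adult arrays. All adult arrays lay above all P10 arrays, and P10 1 was the closest to them in signal but not in level. Its level was 1.29 ± 0.23 in P10 and 2.13 ± 0.32 in adult islets (SD, n = 3 each). The difference of 0.83 ± 0.31 (SE), or 1.78-fold with a 95% interval from 1.08-fold to 2.93-fold, did not pass the adjusted threshold (limma adjusted p = 0.132). It was 0.47 within slide 1 and 0.37 with normexp, where the median of all tested probes was 0.31.

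Ldha A_44_P210461 pointed the other way. Its processed signals were 55.3, 105 and 58.6 on the P10 arrays and 79.4, 3.41 and 8.19 on the adult arrays. Adult 1 lay among the P10 arrays, whereas Adult 2 was not well above background on any of its 10 spots and Adult 3 was so on 8 of 9. The probe entered the test through P10 alone, with 2 of 3 adult arrays detected. With Adult 2 at its measured signal, which is within background, the fitted difference was -2.21 ± 1.01 (SE; limma adjusted p = 0.202) and is no measured fold, and the levels of the adult arrays had an SD of 2.13 against 0.94 in P10. The dim adult arrays were those of slide 2. Within slide 1, where Adult 1 is the only adult array, the difference was 0.12. Without Adult 1 it was -3.37 (limma adjusted p = 0.023), again no measured fold. That fit called 1185 of 11980 tested probes of the whole array lower. In it age and slide cannot be told apart, since its adult arrays are those of slide 2.

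Ldha CUST_16 followed a similar order at a much lower signal. It had processed signals of 8.07, 8.14 and 9.81 on the P10 arrays, 7.57 on Adult 1, and 3.03 and 2.77 on Adult 2 and Adult 3, where it was not well above background on any spot. In level Adult 1, at -4.20, lay above P10 1, at -4.44. It entered the test through P10 alone, with 1 of 3 adult arrays detected, so the fitted difference of -0.91 rests on background signals on Adult 2 and Adult 3 and is no measured fold. Within slide 1, where all arrays detected the probe, the difference was -0.26. With normexp the sign turned, to 0.37, where the median of all tested probes was 0.31. CUST_17 was well above background on P10 1, P10 3 and Adult 1 and was not tested. Its level was -4.27 ± 0.51 in P10 and -4.99 ± 0.55 in adult islets (SD, n = 3 each), with Adult 1 above P10 2.

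Sdha, of the citric acid cycle and respiratory chain, had no probe that passed the test. CUST_38 had processed signals of 214, 178 and 163 on the P10 arrays and 159.6, 199 and 157.7 on the adult arrays. The ages overlapped throughout, with levels of 0.47 ± 0.37 in P10 and 0.57 ± 0.35 in adult islets (SD, n = 3 each). The difference of 0.10 ± 0.34 (SE) had a 95% interval from -0.68 to 0.89 (limma adjusted p = 0.858), which reaches 1.85-fold at its upper end. Its sign turned within slide 1, to -0.27, and with no scaling between arrays, to -0.10.

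Sdha CUST_37 was dimmer, with processed signals of 14.8, 10.5 and 11.4 on the P10 arrays and 16.2, 13.9 and 13.9 on the adult arrays. The lowest signal among detected probes was between 5.46 and 6.03 per array, so background may affect its difference, as for Pgk1 CUST_6. In level all adult arrays lay above all P10 arrays, at -2.98 ± 0.12 against -3.45 ± 0.23 (SD, n = 3 each), although in signal P10 1 lay above Adult 2 and Adult 3. The difference was 0.48 ± 0.28 (SE; 95% interval from -0.18 to 1.13; limma adjusted p = 0.304). The within-array ratio of CUST_37 to CUST_38 differed by 0.37 (exact permutation test, two-sided, p = 0.2).

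The third Sdha probe, CUST_39, was well above background on P10 3 alone, on 8 of 8 unmarked spots and with a processed signal of 9.99. On the other arrays it lay between 1.44 and 2.34, and none of their spots was well above background. It was not tested, and no fold is given because the lowest signal among detected probes, between 5.46 and 6.03 per array, is above the mean signal of both ages.

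Other genes of these pathways were almost not represented. Of 24 glycolysis genes listed, Gapdh and Pgk1 had probes, of 13 genes of lactate and pyruvate handling Ldha did, of 19 of the citric acid cycle Sdha did, and of 14 of the respiratory chain and its shuttles 0 did. Pdk3, a kinase that inhibits pyruvate dehydrogenase, was not on these lists and was noticed on the array afterwards. Its difference was 0.33 ± 0.32 (SE; limma adjusted p = 0.531), with overlapping ages. Of 15 tested probes of 6 other reference genes, 0 passed the test in limma and 0 had an unadjusted p under 0.05, and their differences lay between -0.70 and 0.59.

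The genes most like each member probe in pattern were sought among 36 probes of other genes detected on every array. Likeness was the root mean square difference of levels, each centred on its own mean over the 6 arrays, and is given as a description. Pgk1 CUST_4 was closest to P2rx2, an ATP-gated cation channel, at 0.44 on the log2 scale, where CUST_4 itself deviated from its mean by 2.01. P2rx2 had a difference of 3.28 ± 0.62 (SE; limma adjusted p = 0.043), and the next gene, the cell adhesion molecule Cdh2, was at 1.17. Since P2rx2 was picked for its likeness over the same arrays, its similar difference follows from that choice. It is no separate support for CUST_4. Gapdh CUST_34 was closest to Trim2 (0.43) and Enpp1 (0.44), and CUST_35 and CUST_36 to Med16 (0.25) and Magoh (0.22). Ldha CUST_18 and Sdha CUST_37 were closest to Napepld (0.28 and 0.13), and Sdha CUST_38 and Pgk1 CUST_6 to Rplp1 (0.15 and 0.13). Sdha CUST_37, Sdha CUST_38 and Pgk1 CUST_6 deviated from their own means by only 0.28, 0.30 and 0.22. All probes of an array share the scale that was subtracted, and its part in these likenesses was not tested.

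**Figure D4:**
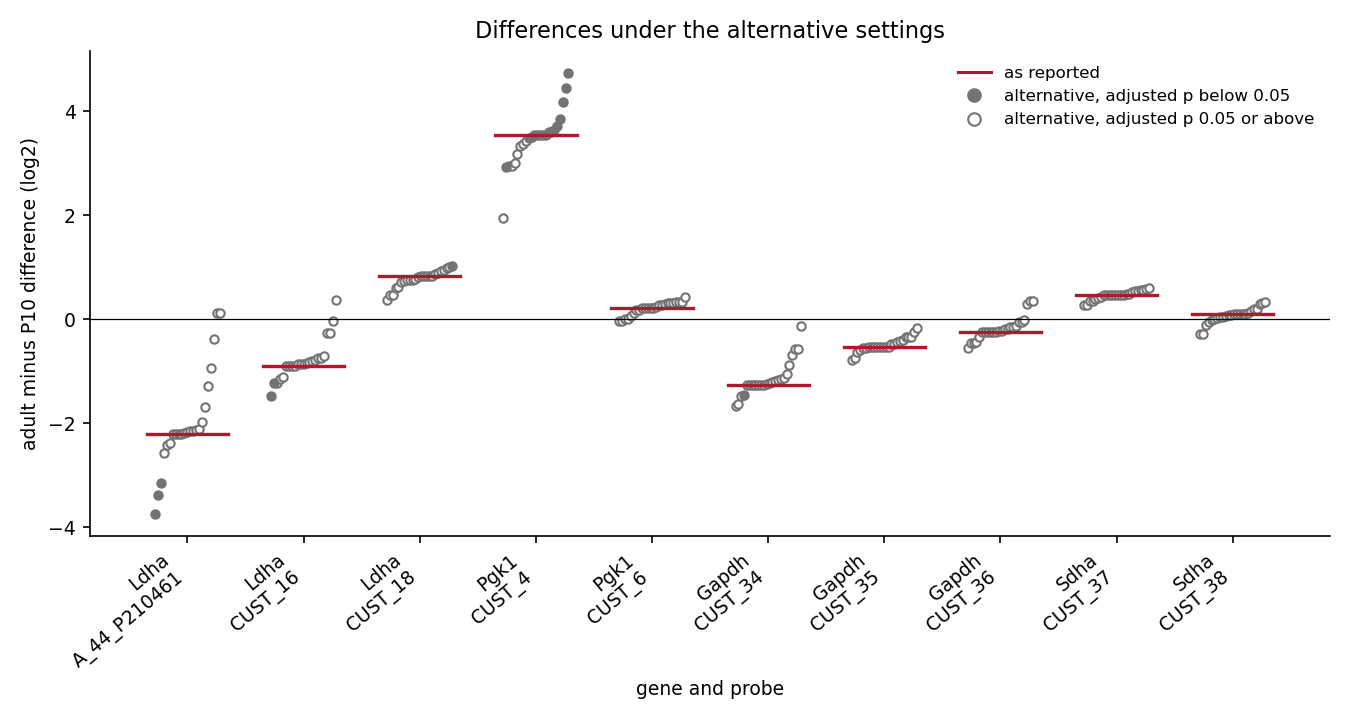
Adult minus P10 difference (vertical axis, log2) of the 10 tested probes (horizontal axis) as reported (red line) and in each alternative setting (points; filled where the adjusted p is under 0.05). Pgk1 CUST_4 stays above 0 between 1.95 and 4.74, Ldha CUST_18 between 0.37 and 1.02 and Sdha CUST_37 between 0.27 and 0.61, while Ldha A_44_P210461 runs from -3.74 to 0.12. The 0.37 of Ldha CUST_18 is with normexp, where the median of all tested probes was 0.31.

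Settings that changed only the filter, the set of adjusted probes or the replicate block could not change an estimate. Slide 1 alone and the slide as a block gave the same estimate. Where the ages did not overlap, leaving arrays out could not turn a sign. Within these limits, Ldha CUST_18, Sdha CUST_37, Gapdh CUST_34 and Gapdh CUST_35 changed sign in 0 of the 24 alternatives, like Pgk1 CUST_4. The other 5 tested probes changed sign in at least 1 (of 23 for Ldha A_44_P210461 and CUST_16, which detection on all arrays would leave out), with the slide and the background handling among the settings that did so.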

How the data were processed

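Spot intensity values were deposited by the authors as written by Agilent Feature Extraction 11.0.1.1, per the file headers, with the background subtracted and no normalization between arrays. The authors' deposited table of log2 values covers 18540 probes and holds 0 of the 13 described here, so it was not used further. Groups came from the sample titles and slides from the scan identifiers. Control spots and spots with an outlier mark (30 of 780 member spots) were left out, and log2 signals were averaged over the spots of a probe. A probe with 10 spots counted as well above background where over 50% of its unmarked spots did. The 75th percentile of each array, between 95.7 and 175 in signal over the 8874 piRNA probes detected on every array, was subtracted. Levels are thus relative brightness, not amounts. For differences (adult minus P10, two-sided), lmFit and eBayes of limma 3.58.1 (R 4.3.3) were run over every probe detected on the complete set of 3 arrays of either age, with Benjamini-Hochberg adjustment at 0.05. The fit was tested on simulated data. No 2 arrays shared a value across probes. Transcripts were matched by accession without version to a RefSeq gene table of GRCr8, which named 61 of 89 probes. All probes of the 4 genes are named, with 2 nearest genes in pattern sought for each probe detected on every array. The files give no mean spot signal, so normexp (offset of 50) was run on the median signal. Exact permutation tests used scipy 1.17.1, and figures matplotlib 3.10.9. The number of arrays limits the precision. The members, lists and tests were chosen with earlier results of these data known.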

Additional observations from a re-analysis of the deposited data

How the results depend on the processing

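Keeping the marked spots in and detection on at least 50% of spots were chosen after seeing the data. Over the whole array 512 probes were called higher and 213 lower, against 0 to 1868 and 0 to 2430 in the alternatives. Among the members 1 was called higher and 0 lower. No scaling, cyclic loess and no filter on dim probes each called 0 probes of the whole array in either direction. With normexp 17 probes of the whole array were called higher and 50 lower. Pgk1 CUST_4, at 3.55, lost its call with no scaling (3.34), cyclic loess (3.50) and normexp (1.95). It also did with no filter on dim probes (3.55) and with the slide as a block (2.95). In each of these settings 0 members were called higher. The slide as a block called 1 of 11981 tested probes of the whole array. Slide 1 alone, with a single adult array, gave the same 2.95. With 1 array left out CUST_4 ranged from 3.01 to 4.44 (0 to 1 members called higher, 0 to 1 lower). Array weights called 2 higher (Pgk1 CUST_4 and Ldha CUST_18, the latter at 1.02) and 3 lower: Ldha A_44_P210461 (-3.14), Ldha CUST_16 (-1.23) and Gapdh CUST_34 (-1.45). Over the whole array that setting called 1868 probes higher and 2430 lower, of 11981 tested. Without both arrays numbered 1, 2 were lower, Ldha A_44_P210461 (-3.74) and CUST_16 (-1.48), and without Adult 1 the former (-3.37; -3.37 to -1.29 with 1 array left out). Over the whole array 2146 of 11969 tested probes were called lower without both arrays numbered 1, and 1185 of 11980 without Adult 1. In both settings all adult arrays were on slide 2 and all P10 arrays on slide 1, so age and slide cannot be told apart. Ldha A_44_P210461 and CUST_16 passed the filter through P10 alone and were within background on 1 and 2 adult arrays. The replicate numbers of the titles did not pair the samples (correlations of deviations of -0.04, 0.24 and -0.23 for numbers 1, 2 and 3). A replicate block cannot change the estimate, because both ages hold every number. With it Pgk1 CUST_4, at 3.55, did not pass (limma adjusted p = 0.076). In that setting 0 members and 0 probes of the whole array were called. Signs turned for Ldha A_44_P210461 (0.12), Gapdh CUST_36 (0.36), Sdha CUST_38 (-0.27) and Pgk1 CUST_6 (-0.025) on slide 1 alone and, identically, with the slide as a block, since the only adult array in that estimate is Adult 1, for Ldha CUST_16 (0.37) and Gapdh CUST_36 (0.29) with normexp, and for Sdha CUST_38 with no scaling (-0.10), without P10 3 (-0.020) and without Adult 2 (-0.049; -0.049 to 0.32 with 1 array left out). Causes were not tested. Members within a few intensity units of the lowest detected signal are limited by background.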
